A study of Mus musculus with 15 samples.

Results

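The 10 genes described here are *Tnf*, the NF-κB subunit genes *Nfkb1*, *Nfkb2*, *Rela* and *Relb*, the feedback genes *Nfkbia*, *Nfkbiz* and *Tnfaip3*, and the inducible enzyme genes *Ptgs2* and *Nos2*. They were chosen by symbol, with earlier results of these data known but without use of a threshold on any value. All 10 symbols were found once among the 54390 genes of each count table, and all 10 passed the filter on low counts that left 14237 genes for testing.

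RNA was sequenced from BV2 cells, an immortalized mouse microglial line used as a macrophage model. Wild-type (WT) and Trem2-/- cells were cultured overnight in media alone (non-foamy) or with 20 μg/ml soluble cholesterol (foamy), which loads macrophages with lipid. Per the methods, the soluble cholesterol was prepared with methyl-beta-cyclodextrin, and no control with this carrier alone is described for these libraries. Effects of the carrier and of cholesterol therefore cannot be told apart, and a response to cholesterol below means foamy against non-foamy cells. There were 4 libraries of WT non-foamy, 4 of WT foamy, 3 of Trem2-/- non-foamy and 4 of Trem2-/- foamy cells. Per the methods, the Trem2-/- line was made with a guide RNA in a Cas9-expressing BV2 line that was itself a single clone, and knockout clones were then isolated by limiting dilution. How many clones the libraries came from is not stated in the sources used here. Differences between the clones and differences due to *Trem2* cannot be told apart in these libraries, and whether the WT cells also carried Cas9 is not stated in the sources used here. No source says that replicates were separate cultures, so p-values measure only the spread between these libraries, which may be technical.

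NF-κB is a family of transcription factor dimers that inhibitors of the IκB group hold in the cytoplasm of resting cells. When TNF or a Toll-like receptor signals, IκB kinase marks the inhibitors for destruction, the dimers enter the nucleus, and cytokine, enzyme and inhibitor genes are transcribed. Several of those targets feed back: new IκBα takes dimers out of the nucleus and A20 edits ubiquitin on the upstream adaptors, so that in macrophages and microglia the response to a stimulus is brief.

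Each library held between 23538963 and 41683825 counted reads, and the members were counted with 76 to 1616 reads a library. Levels are given as CPM, the reads of a gene scaled to the library's size. The targeted gene *Trem2* averaged 354 ± 41.2 CPM without (s.d., n = 4) and 373 ± 26.4 CPM with cholesterol (n = 4) in WT cells, against 222 ± 8.79 (n = 3) and 224 ± 4.56 CPM (n = 4) in the Trem2-/- line, and the genotypes did not overlap. A transcript level does not measure the protein. Of 12 microglia and macrophage markers, 9 had a mean of at least 1 CPM over all libraries, the microglial marker *Sall1* was at 0 in all 15 libraries and *Tmem119* stayed under 1 CPM in every group mean. WT non-foamy replicate 3 and WT foamy replicate 1 stood apart from the other libraries of their groups, and Trem2-/- foamy replicate 4 less so. As a measure, the squared difference between 2 libraries was set against that expected from counting alone and averaged over genes. Pairs with WT non-foamy replicate 3 had 29.68 to 38.5, against 6.21 to 7.44 in its group's other pairs. With WT foamy replicate 1 it was 18.63 to 43.78, against 8.13 to 15.21. With Trem2-/- foamy replicate 4 it was 14.95 to 23.62, against 6.64 to 10.53.

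Promoter sequences were taken from RefSeq for the 6 members in its promoter table (*Tnf*, *Nfkb2*, *Rela*, *Nfkbia*, *Tnfaip3* and *Ptgs2*), which has 9 start sites for them. They are shown for 4 members on which the comparisons turn: the feedback inhibitor genes that were called in opposite directions between non-foamy genotypes, and the cytokine and enzyme genes called in opposite directions in both media. Lower case gives the bases before the start on the gene's own strand, 5′ to 3′, in build GRCm38.p6, and capitals mark matches to the κB consensus on either strand. The windows are chr12:55492648-55492897 (minus strand) for *Nfkbia*, chr10:19015411-19015547 (minus strand) for *Tnfaip3*, which leaves out bases that lie in an exon of an earlier annotated start, chr17:35202008-35202257 (minus strand) for *Tnf* and chr1:150099781-150100030 (plus strand) for *Ptgs2*.
Nfkbia: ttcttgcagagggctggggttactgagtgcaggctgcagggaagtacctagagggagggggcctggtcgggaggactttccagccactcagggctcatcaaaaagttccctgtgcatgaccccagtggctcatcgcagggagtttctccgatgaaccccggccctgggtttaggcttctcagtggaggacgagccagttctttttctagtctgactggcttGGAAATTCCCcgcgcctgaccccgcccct
Tnfaip3: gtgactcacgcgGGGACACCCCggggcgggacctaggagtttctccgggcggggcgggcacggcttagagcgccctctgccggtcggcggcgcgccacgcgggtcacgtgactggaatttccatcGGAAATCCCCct
Tnf: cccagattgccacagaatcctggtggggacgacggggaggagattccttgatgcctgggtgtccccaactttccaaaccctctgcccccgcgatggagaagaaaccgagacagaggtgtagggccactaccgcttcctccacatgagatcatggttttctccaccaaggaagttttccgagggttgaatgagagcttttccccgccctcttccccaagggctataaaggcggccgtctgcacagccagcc
Ptgs2: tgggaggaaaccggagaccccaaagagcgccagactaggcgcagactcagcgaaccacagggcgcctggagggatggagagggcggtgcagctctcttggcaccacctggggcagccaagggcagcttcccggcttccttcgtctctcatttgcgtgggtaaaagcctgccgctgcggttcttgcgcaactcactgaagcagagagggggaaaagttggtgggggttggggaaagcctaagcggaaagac
The *Nfkbia* window held 1 match, which begins 29 bases before the start and also fits the stricter form GGGNNTTTCC on the opposite strand. *Tnfaip3* held 2 matches at this start, beginning 125 and 12 bases before it, the nearer one of the strict form, and none at its other start. The 3 windows of *Nfkb2* held 4, 1 and 1 matches, with overlapping matches and matches on both strands counted separately. No match was found in the windows of *Tnf*, *Ptgs2* or *Rela*, which says only that these letters are not within 250 bases before those starts. Among all 32851 windows of 250 bases in the table, 3.9% held the κB consensus and 1.41% the strict form on either strand, and the strict matches overlap those of the consensus. A match describes the sequence and does not show binding.

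**Figure D1:**
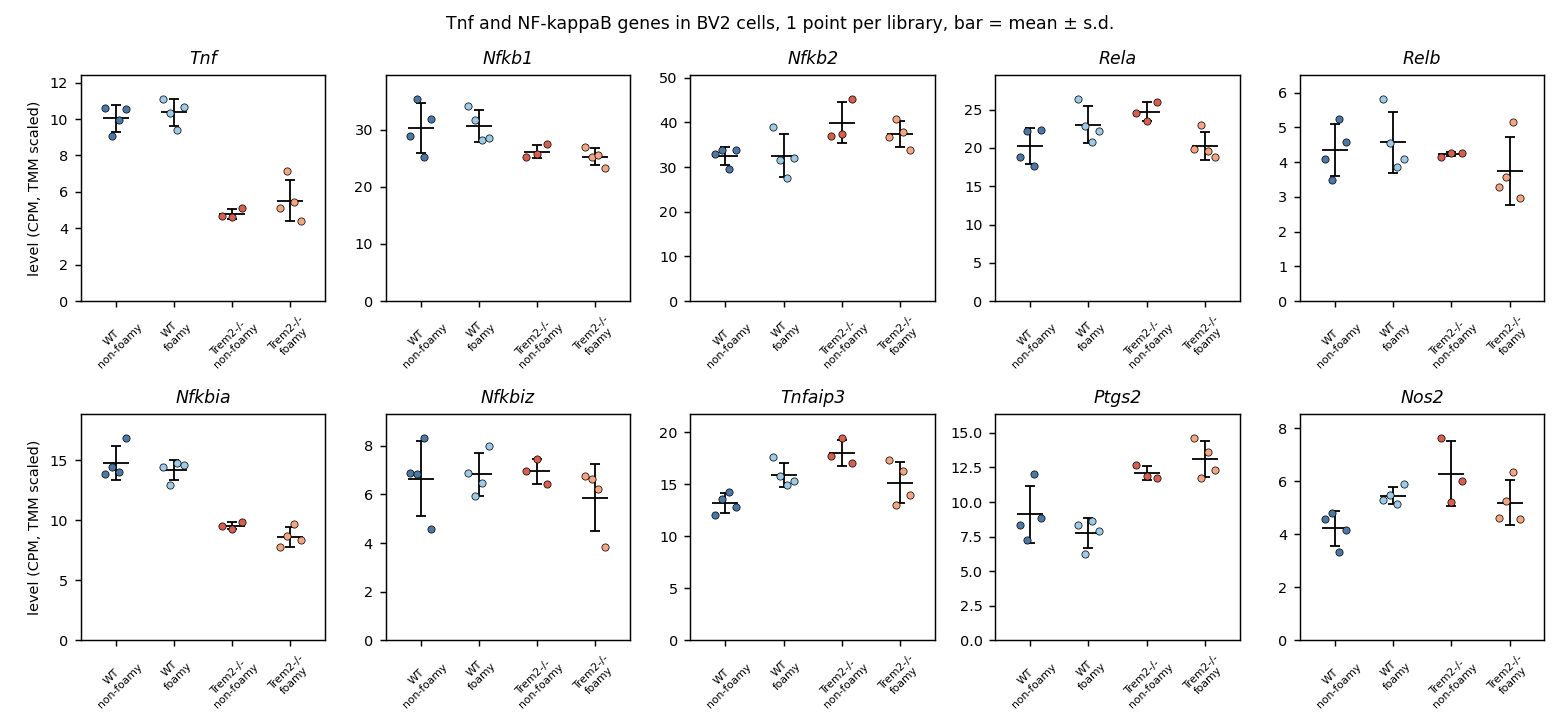
Level of each of the 10 genes in CPM after TMM scaling (y axes, linear, from 0) in the 4 groups (x axes). Each point is 1 library and the bars are mean ± s.d. *Tnf* and *Nfkbia* are lower and *Ptgs2* is mostly higher in the Trem2-/- libraries, with *Tnf* between 4.42 and 7.12 CPM there against 9.05 to 11.1 CPM in WT.

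The ligand gene *Tnf* (chromosome 17, 35199381 to 35202007, GRCm38) encodes the cytokine that starts much of this signaling. Its levels were 10.6, 9.05, 9.95 and 10.5 CPM in WT non-foamy and 11.1, 10.3, 9.39 and 10.7 CPM in WT foamy libraries. They were 4.67, 4.62 and 5.10 CPM in Trem2-/- non-foamy and 5.12, 7.12, 5.44 and 4.42 CPM in Trem2-/- foamy libraries. Every Trem2-/- library was below every WT library in both media. Fitted across all genes, *Tnf* was 52.3% lower in Trem2-/- than in WT cells without cholesterol (log2 fold change −1.07, s.e. 0.14, edgeR adjusted p = 1.31e-06). With cholesterol it was 46.7% lower (−0.91, s.e. 0.12, adjusted p = 6.85e-06). In bulk RNA, fewer cells expressing a gene and less RNA per cell cannot be told apart, and this holds for every difference given here.

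The gene for the IκBα inhibitor, *Nfkbia* (chromosome 12, 55489410 to 55492647), whose promoter window held the strict match above, followed *Tnf* in direction. It was at 13.8, 14.4, 14 and 16.8 CPM in WT non-foamy and at 14.4, 13.0, 14.7 and 14.6 CPM in WT foamy libraries. In Trem2-/- cells it was at 9.52, 9.24 and 9.87 CPM without and at 7.76, 8.68, 9.65 and 8.32 CPM with cholesterol. The genotypes did not overlap in either medium. In edgeR, *Nfkbia* was 35.5% lower in Trem2-/- non-foamy cells (log2 fold change −0.63 with an s.e. of 0.10, adjusted p = 2.74e-05), and it was 39.3% lower in foamy ones (−0.72, s.e. 0.09, adjusted p = 4.61e-06).

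*Tnfaip3* (chromosome 10, 19000910 to 19015657), which encodes the ubiquitin-editing enzyme A20, went the other way in non-foamy cells. Its WT libraries held 12.03, 13.6, 14.3 and 12.8 CPM without and 17.6, 15.8, 14.95 and 15.4 CPM with cholesterol. Trem2-/- libraries held 17.7, 19.5 and 17.0 CPM without and 17.4, 13.0, 16.3 and 14 CPM with cholesterol. The WT non-foamy group was the low one, below all WT foamy and all Trem2-/- non-foamy libraries, while both foamy groups overlapped. *Tnfaip3* was 37.4% higher in Trem2-/- than in WT non-foamy cells (log2 fold change 0.46, s.e. 0.10, adjusted p = 0.00108). Between the foamy groups the value was −0.07 with a 95% interval from −0.27 to 0.13 (adjusted p = 0.636).

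*Nfkbiz* (chromosome 16, 55811375 to 55838899) encodes IκBζ, a nuclear IκB protein that acts on secondary response genes. Its libraries spanned 4.60 to 8.32 CPM in WT and 3.86 to 7.47 CPM in Trem2-/- cells, and no comparison called it. The log2 fold change between genotypes was 0.08 without cholesterol (95% interval −0.30 to 0.46) and −0.21 with it (−0.56 to 0.14).

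Among the subunit genes, *Nfkb1* (chromosome 3, 135584655 to 135691547) encodes p105, the precursor of p50, and *Nfkb2* (chromosome 19, 46304320 to 46312385) encodes p100, the precursor of p52. *Nfkb1* was at 28.8, 35.4, 25.2 and 31.9 CPM in WT non-foamy, 34.2, 31.7, 28.3 and 28.6 CPM in WT foamy, 25.2, 25.8 and 27.4 CPM in Trem2-/- non-foamy and 26.9, 25.3, 25.6 and 23.4 CPM in Trem2-/- foamy libraries. *Nfkb2* was at 32.9, 33.9, 29.5 and 33.9 CPM in WT non-foamy, 39.0, 31.5, 27.6 and 32.0 CPM in WT foamy, 37.0, 37.5 and 45.3 CPM in Trem2-/- non-foamy and 36.8, 40.9, 37.9 and 33.8 CPM in Trem2-/- foamy libraries. The group means of *Nfkb1* were lower and those of *Nfkb2* higher in Trem2-/- cells, with the libraries separated for *Nfkb1* in foamy and for *Nfkb2* in non-foamy cells and overlapping in the others. *Nfkb1* passed the test in foamy cells (log2 fold change −0.28 with an s.e. of 0.09, adjusted p = 0.0246) and had −0.22 (95% interval −0.42 to −0.01, adjusted p = 0.0852) in non-foamy cells. *Nfkb2* passed in non-foamy cells (0.29, s.e. 0.10, adjusted p = 0.0219) and had 0.20 (95% interval 0.00 to 0.39, adjusted p = 0.118) in foamy cells. Exons of genes on the opposite strand, *Psd* among them, cover 18.1% of the *Nfkb2* exons, and the strand setting of the counting is not given in the sources used here, so *Nfkb2* counts are less certain than those of the other members, whose exons overlap no other gene.

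*Rela* (chromosome 19, 5637483 to 5648130) encodes p65, the subunit that carries the activation domain of the main dimer. It was at 18.9, 22.2, 17.7 and 22.3 CPM in WT non-foamy and at 26.4, 22.9, 20.7 and 22.2 CPM in WT foamy libraries. In Trem2-/- cells it was at 24.6, 23.6 and 26.0 CPM without and at 19.8, 22.9, 19.6 and 18.8 CPM with cholesterol. The Trem2-/- non-foamy libraries were above all WT non-foamy and all Trem2-/- foamy libraries, and the other pairs of groups overlapped. *Rela* was 21.8% higher in Trem2-/- than in WT non-foamy cells (log2 fold change 0.28 with an s.e. of 0.10, adjusted p = 0.0288), and had −0.18 (95% interval −0.38 to 0.01, adjusted p = 0.154) between the foamy groups. *Relb* (chromosome 7, 19606217 to 19629438), the partner of p52 in the alternative pathway, spanned 3.48 to 5.82 CPM in WT and 2.97 to 5.16 CPM in Trem2-/- libraries and was not called, with −0.03 (95% interval −0.43 to 0.36) in non-foamy and −0.29 (−0.66 to 0.07) in foamy cells.

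The enzyme gene *Ptgs2* (chromosome 1, 150100031 to 150108227) encodes the inducible cyclooxygenase of prostanoid synthesis. It was at 8.33, 7.25, 12.1 and 8.84 CPM in WT non-foamy and at 8.31, 6.21, 8.65 and 7.90 CPM in WT foamy libraries. In Trem2-/- cells it was at 12.7, 11.9 and 11.7 CPM without and at 14.6, 11.7, 13.6 and 12.3 CPM with cholesterol. All 4 Trem2-/- foamy libraries were above all WT foamy libraries, whereas among non-foamy libraries WT replicate 3, one of those that stand apart, lay within the Trem2-/- range. *Ptgs2* was 68.8% higher in Trem2-/- foamy than in WT foamy cells (log2 fold change 0.76 with an s.e. of 0.13, adjusted p = 0.00013) and 33.7% higher in non-foamy cells (0.42, s.e. 0.14, adjusted p = 0.0194).

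*Nos2* (chromosome 11, 78920787 to 78960254) encodes inducible nitric oxide synthase. Its levels were low, at 4.59, 4.80, 3.35 and 4.17 CPM in WT non-foamy and 5.31, 5.48, 5.17 and 5.90 CPM in WT foamy libraries. Trem2-/- libraries had 7.64, 5.23 and 6.03 CPM without and 4.62, 5.28, 6.36 and 4.57 CPM with cholesterol. As for *Tnfaip3*, the WT non-foamy group was the low one and did not overlap WT foamy or Trem2-/- non-foamy cells. *Nos2* was 48.6% higher in Trem2-/- than in WT non-foamy cells (log2 fold change 0.57 with an s.e. of 0.16, adjusted p = 0.00552), and between the foamy groups it had −0.07 (95% interval −0.37 to 0.24, adjusted p = 0.769).

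**Figure D2:**
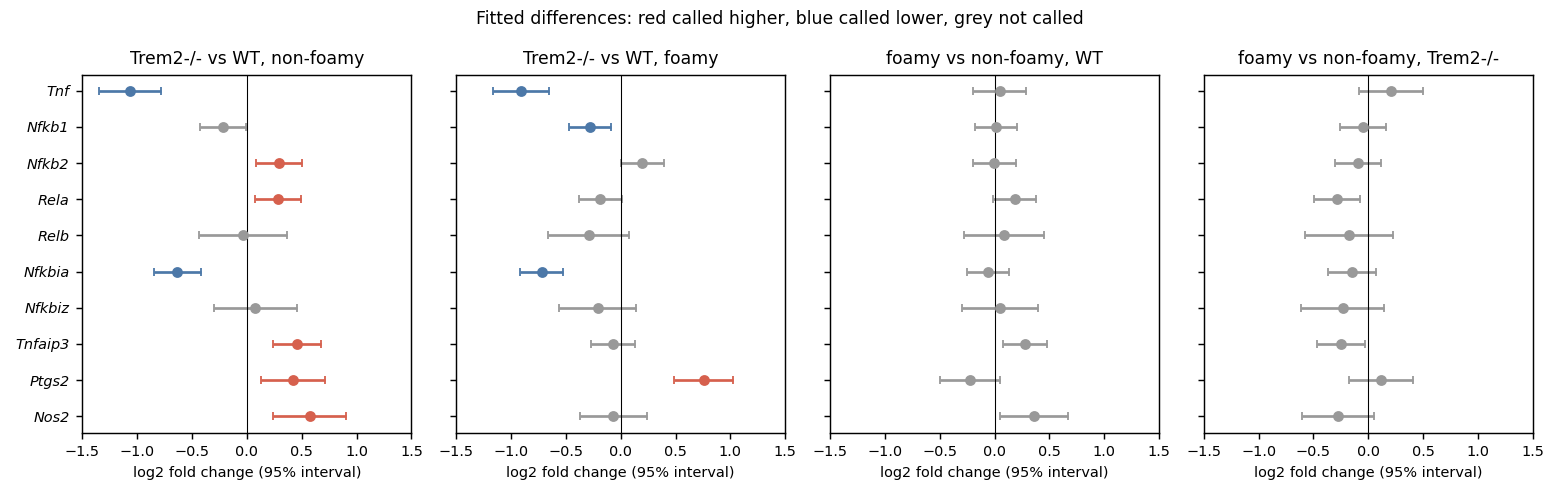
Fitted log2 fold change (x axes) of the 10 genes (y axis) in 4 comparisons, with 95% intervals from edgeR. Red points passed the test higher, blue points passed lower and grey points did not pass. *Tnf* and *Nfkbia* lie left of 0 and *Ptgs2* right of 0 in both comparisons of genotypes, and no member passed in either comparison of media.

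Counted together, 7 of the 10 members passed the test between genotypes without cholesterol, beside 43.6% of all tested genes. Of these, 5 were higher in Trem2-/- cells (*Tnfaip3*, *Nos2*, *Ptgs2*, *Nfkb2* and *Rela*), where 21.0% of all genes were, and 2 were lower (*Tnf* and *Nfkbia*), where 22.6% were. The groups did not overlap for 6 members, beside 46.1% of all genes. The median log2 fold change of the members was 0.18 and that of all tested genes 0.02. Part of this depended on the scaling: with total counts alone the median of all genes moved to −0.125 without and −0.129 with cholesterol, and the share of calls that were higher in Trem2-/- cells went from 48.1% to 29.4% and from 47.4% to 23.3%. Under that scaling *Tnf*, *Nfkbia*, *Nfkb1* (lower) and *Tnfaip3* (higher) passed without cholesterol, and *Nfkb2*, *Rela*, *Ptgs2* and *Nos2* did not, with adjusted p of 0.382, 0.416, 0.101 and 0.05685. *Nfkb2* also did not pass without Trem2-/- non-foamy replicate 3 (adjusted p = 0.175), nor *Nos2* without Trem2-/- non-foamy replicate 1 (0.073). *Ptgs2* was lost without WT non-foamy replicate 1 or 2 or Trem2-/- non-foamy replicate 1 (adjusted p 0.056 to 0.0734). *Rela* was lost without replicate 1 or 3 of either non-foamy group (adjusted p 0.0658 to 0.109). *Nfkb1*, by contrast, passed without WT non-foamy replicate 3 (adjusted p = 0.0133).

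With cholesterol, 4 of the 10 members passed between genotypes, beside 30.2% of all tested genes. Of these, 1 was higher (*Ptgs2*), where 14.3% of all genes were, and 3 were lower (*Tnf*, *Nfkbia* and *Nfkb1*), where 15.9% were. The groups did not overlap for those 4 members, beside 28.8% of all genes. The median was −0.20 for the members and 0.00 for all tested genes. *Nfkb1* was lost without WT foamy replicate 1 or 2 or Trem2-/- foamy replicate 4 (adjusted p 0.06193 to 0.0876), and *Nfkb2* was called higher without WT foamy replicate 1 (adjusted p = 0.0135), as *Relb* was called lower without Trem2-/- foamy replicate 3 (0.0423). *Tnf* and *Nfkbia* were lower and past the threshold in both media under every alternative run.

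The microglia and macrophage markers moved with genotype as well. Summed over the 12 markers, they reached 2473 to 2925 CPM in WT and 3475 to 3734 CPM in Trem2-/- libraries, with *Sall1* at 0 in all, and their part in the differences between genotypes was not tested. The markers of neurons, astrocytes, lymphocytes and fibroblasts (3 each) summed to at most 0.19 CPM in any library. The 3 oligodendrocyte markers summed to 0.817 to 2.57 CPM, with *Mog* at 0 in every group. The 3 endothelial markers summed to 4.64 to 9.88 CPM in WT and 1.91 to 4.42 CPM in Trem2-/- libraries, nearly all of it *Kdr*, with *Pecam1* and *Cdh5* at group means of at most 0.29 CPM. Their part in the differences was not tested.

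Ratios of read counts within a library do not depend on how libraries are scaled. The ratio of *Ptgs2* to *Tnf* reads was 0.602 to 1.21 over the 8 WT libraries and 1.65 to 2.86 over the 7 Trem2-/- libraries. For the feedback inhibitors, the ratio of *Tnfaip3* to *Nfkbia* reads was 0.761 to 1.22 in WT and 1.5 to 2.24 in Trem2-/- libraries. The ratio of *Nfkb2* to *Nfkb1* reads was 0.957 to 1.17 in WT and 1.37 to 1.65 in Trem2-/- libraries. In these 3 ratios no Trem2-/- library overlapped a WT library. The ratio of *Nfkbia* to *Tnf* reads separated the genotypes only without cholesterol, with 1.3 to 1.6 in WT against 1.94 to 2.04 in Trem2-/- non-foamy libraries, and overlapped with it, at 1.26 to 1.57 against 1.22 to 1.88. These pairs were set side by side with the values of their members known, so the separations are descriptions. How often other pairs of genes separate the genotypes in this way was not counted. The ratio with *Nfkb2* also rests on the less certain counts of that gene.

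**Figure D3:**
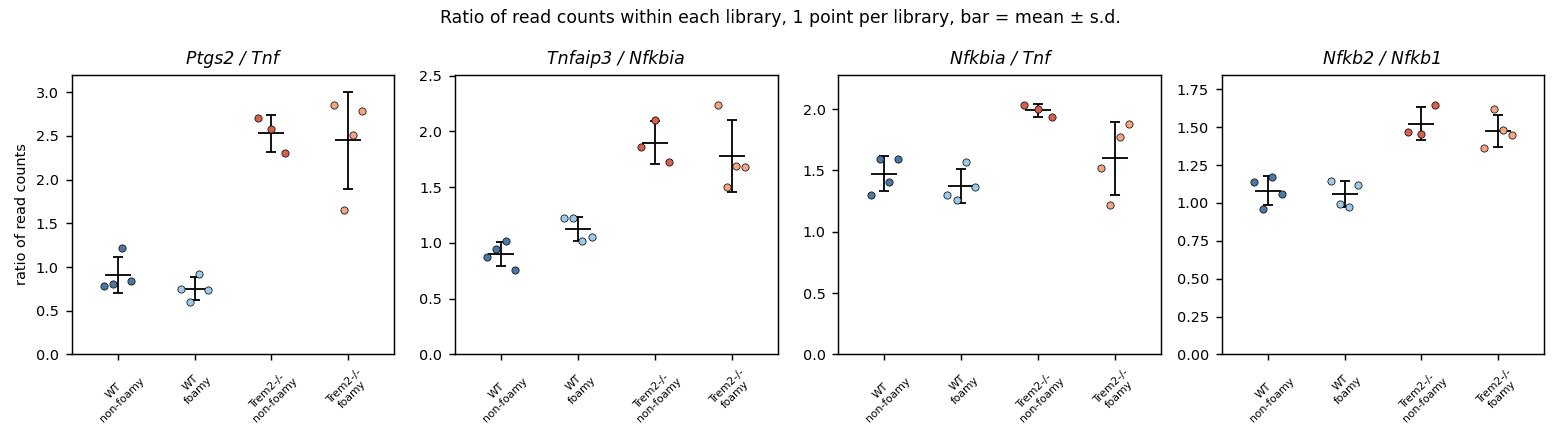
Ratio of read counts of 2 genes within each library (y axes, linear, from 0) in the 4 groups (x axes), 1 point per library with mean ± s.d. The ratios of *Ptgs2* to *Tnf*, *Tnfaip3* to *Nfkbia* and *Nfkb2* to *Nfkb1* are above the WT range in all 7 Trem2-/- libraries, and that of *Nfkbia* to *Tnf* overlaps between the foamy groups.

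No member passed the test for the response to cholesterol in either genotype. In WT cells 0 of the 10 passed in edgeR, beside 2.80% of all tested genes (1.66% higher and 1.14% lower in foamy cells; higher calls were 59.4% of all calls and 41.8% with total counts alone), and DESeq2 called 0 as well. At an unadjusted p under 0.05 there were 2, *Tnfaip3* and *Nos2*, beside 16.4% of all genes. Both were higher in all 4 foamy libraries than in any of the 4 non-foamy libraries, where the groups did not overlap for 9.71% of all genes. *Tnfaip3* had a log2 fold change of 0.28 (95% interval 0.08 to 0.48, adjusted p = 0.13) and *Nos2* of 0.36 (0.05 to 0.67, adjusted p = 0.212). For *Tnf* the value was 0.05 (−0.20 to 0.29), for *Nfkbia* −0.06 (−0.25 to 0.13) and for *Ptgs2* −0.22 (−0.50 to 0.05). The WT non-foamy libraries that are low for *Tnfaip3* and *Nos2* are the same ones that enter the comparison of genotypes without cholesterol.

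In Trem2-/- cells 0 of the 10 passed in edgeR and 0 in DESeq2, beside 0.140% of all tested genes in edgeR (0.105% higher and 0.0351% lower). At an unadjusted p under 0.05 there were again 2, *Rela* and *Tnfaip3*, beside 6.45% of all genes, both with lower values in foamy cells. *Rela* had −0.28 (95% interval −0.50 to −0.07, adjusted p = 0.654) and did not overlap between media, as 9.26% of all genes did not, and *Tnfaip3* had −0.25 (−0.47 to −0.03, adjusted p = 0.704) and overlapped. *Tnf* had 0.21 (−0.08 to 0.50), *Nfkbia* −0.15 (−0.37 to 0.07) and *Ptgs2* 0.11 (−0.18 to 0.40).

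Whether the response to cholesterol differed between genotypes was tested as the difference of both responses. *Tnfaip3* alone among the 10 members passed (−0.53, s.e. 0.14, edgeR adjusted p = 0.0416), beside 3.64% of all tested genes (1.99% higher and 1.64% lower in the Trem2-/- response; higher calls were 54.8% of all calls and 70.3% with total counts alone). Its mean level went from 13.2 to 15.9 CPM in WT and from 18.1 to 15.2 CPM in Trem2-/- cells. This call was lost under 12 of 22 alternatives, among them total counts alone (adjusted p = 0.0637), the factor for replicate number (0.086) and leaving out any of 10 libraries in turn (0.05314 to 0.119). *Rela* had −0.47 (s.e. 0.14, adjusted p = 0.0627), and was called by DESeq2 (0.0203) and without the filter on low counts (0.0363). *Nos2* had −0.64 (s.e. 0.22, adjusted p = 0.104). *Tnf*, *Nfkbia* and *Ptgs2* had 0.16, −0.09 and 0.34, with 95% intervals that include 0.

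Per kilobase of exon, which allows levels of different genes to be compared, the mean over the 4 groups was 7.76 CPM for *Nfkb2*, 7.31 for *Nfkbia* and 7.19 for *Rela*. It was 4.69 for *Tnf*, 2.33 for *Nfkb1*, 2.30 for *Ptgs2* and 2.16 for *Tnfaip3*. The lowest were *Nfkbiz* at 1.31, *Nos2* at 1.20 and *Relb* at 1.09 CPM per kilobase, against 59.3 for *Trem2*. The exon length is that of all annotated exons joined, which exceeds the length of a single transcript for genes with several.

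The order of the groups differed by member. *Tnf* and *Nfkbia* had every library of both WT groups above every library of both Trem2-/- groups, and the media overlapped within each genotype. *Nfkb1* and *Relb* also had both WT means above both Trem2-/- means, but with overlapping libraries. *Ptgs2* and *Nfkb2* had both Trem2-/- means above both WT means. *Rela*, *Tnfaip3* and *Nos2* shared 1 order, Trem2-/- non-foamy, WT foamy, Trem2-/- foamy and WT non-foamy from highest to lowest mean. Each group overlapped the next in this order for all 3 genes. The *Rela* means of Trem2-/- foamy and WT non-foamy cells were 20.28 and 20.25 CPM. The ratio of the highest to the lowest group mean was 2.16 for *Tnf*, 1.72 for *Nfkbia*, 1.68 for *Ptgs2*, 1.49 for *Nos2* and 1.37 for *Tnfaip3*, and from 1.18 to 1.23 for the other members.

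Among 11707 candidate genes that averaged 1 CPM or more, those whose pattern over the 15 libraries was most like that of *Tnf* were *Cdca7*, *Rfc5*, *Dhodh*, *Mcm4* and *Nlrp3*. The measure was the root mean square difference of centred log2 levels, which was 0.12 for *Cdca7*, 0.13 for *Rfc5*, 0.14 for *Dhodh*, 0.14 for *Mcm4* and 0.15 for *Nlrp3*. *Nlrp3*, the sensor of an inflammasome, averaged 17.1 CPM without and 15.8 CPM with cholesterol in WT cells, and 8.18 and 8.87 CPM in the Trem2-/- line. *Mcm4*, a subunit of the replicative helicase, went from 97.1 and 93.7 CPM in WT to 49.2 and 49.8 CPM in Trem2-/- cells, and *Rfc5*, a subunit of the clamp loader, from 73.6 and 71.0 CPM to 37.8 and 38.6 CPM. All libraries and their scaling are shared by these genes. All 5 had lower means in both Trem2-/- groups than in both WT groups, and 22.6% of all tested genes were called lower without and 15.9% with cholesterol. A like pattern does not show shared regulation. Among the other members the smallest difference from *Tnf* was 0.24, for *Nfkbia*.

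The pathway around the members was described with 8 lists of 95 genes in all, of which 83 were tested. Over all lists, 20 of 83 genes passed higher and 17 lower in Trem2-/- non-foamy than in WT non-foamy cells, and 14 passed higher and 15 lower between the foamy groups. Among all tested genes the shares were 21.0% higher and 22.6% lower in non-foamy cells, and 14.3% higher and 15.9% lower in foamy cells, so the lists held calls about as often as all genes did. With total counts alone the list counts became 12 and 24, and 8 and 22. The median log2 fold changes were 0.09 and 0.01, beside 0.02 and 0.00 for all tested genes. The counts of each list below are to be read against the same shares, and each rests on few genes.

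Among receptors and adaptors of TNF, non-foamy Trem2-/- cells had 2 of 9 genes higher and 1 lower than WT, and foamy cells had 3 higher. The lower call was kept under 5 of 15 alternatives, and that of *Ripk1*, higher in foamy cells, under 8 of 16. *Tnfrsf1b*, the gene for TNF receptor 2, was higher in Trem2-/- cells in both media (log2 fold change 0.69, adjusted p = 5.09e-07, and 0.36, adjusted p = 0.00103), the latter with adjusted p = 0.0813 under total counts alone. *Tnfrsf1a*, the gene for TNF receptor 1, had −0.12 (95% interval −0.34 to 0.11) and −0.14 (−0.35 to 0.07). Among 15 kinases and adaptors that activate NF-κB, 5 were higher and 3 lower in the non-foamy comparison, and 1 was higher and 3 lower in the foamy one. Some of the higher non-foamy calls were lost under total counts alone, that of *Irak4* (0.46) among them with adjusted p = 0.118. *Traf6*, a ubiquitin ligase of Toll-like receptor signaling, was higher (0.40 and 0.45), whereas *Myd88*, the adaptor of most Toll-like receptors (−0.57 and −0.33), *Traf3* (−0.55 and −0.37) and *Map3k14*, the kinase of the alternative pathway (−0.42 and −0.60), were lower in both media. The call of *Map3k14* in non-foamy cells was lost under 4 alternatives, those without WT non-foamy replicate 2 or 4, without Trem2-/- non-foamy replicate 3 and with only the libraries compared. *Ikbkb*, a catalytic subunit of IκB kinase, had −0.02 (95% interval −0.20 to 0.17) and −0.05 (−0.22 to 0.12).

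Of 5 other Rel and IκB genes, 1 was higher and 2 lower in non-foamy and 2 were lower in foamy Trem2-/- cells. *Nfkbie*, which encodes IκBε, was lower in both media (−1.24 and −1.03), as *Nfkbia* was. *Nfkbie* levels were low, averaging 2.78 CPM without and 2.53 CPM with cholesterol in WT cells. In Trem2-/- cells they averaged 1.18 and 1.23 CPM, with 22 to 54 reads a library. *Rel* was higher in non-foamy cells (0.37, adjusted p = 0.00198, and 0.0997 under total counts alone) and had 0.00 (95% interval −0.17 to 0.18) in foamy cells. Of 12 ubiquitin-editing and other feedback inhibitors, 2 were higher and 1 lower in non-foamy and 1 was higher and 1 lower in foamy Trem2-/- cells. *Tnip3*, whose product binds A20, was the lower one (−1.38 and −0.89), and *Tnip1*, another A20-binding gene, was higher without cholesterol (0.30, adjusted p = 0.0129, and 0.318 under total counts alone) and had 0.06 (−0.12 to 0.24) with it.

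Genes of *Tnf* mRNA decay and of TNF processing were called in both directions, 3 of 10 higher and 2 lower in non-foamy Trem2-/- cells, and 2 in each direction in foamy ones. The call of *Tia1*, lower in non-foamy cells, was kept under 5 of 15 alternatives, and that of *Tial1*, higher in foamy cells, under 8 of 16. *Zfp36*, whose product tristetraprolin binds AU-rich elements and speeds decay of *Tnf* mRNA, was higher without cholesterol (0.42, adjusted p = 0.00749, and 0.102 under total counts alone) and had 0.02 (95% interval −0.22 to 0.25) with it. *Adam17*, the protease that sheds TNF, was higher (0.38 and 0.28) and *Elavl1*, an RNA-binding protein gene, lower in both media (−0.48 and −0.37).

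Of 24 further inducible NF-κB targets 16 were tested, with 4 higher and 4 lower in non-foamy Trem2-/- cells, and 5 higher and 3 lower in foamy ones. The chemokine genes *Ccl2* (−2.04 and −1.57), *Ccl4* (−1.36 and −0.89) and *Ccl3* (−0.995 and −0.41) were lower in Trem2-/- cells in both media. *Ccl2* levels were low, averaging 2.76 CPM without and 2.13 CPM with cholesterol in WT cells. In Trem2-/- cells they averaged 0.668 and 0.72 CPM, with 12 to 26 reads a library. *Ccl5*, also a chemokine gene, was called higher in foamy Trem2-/- cells (0.86, s.e. 0.31, adjusted p = 0.0408), with overlapping groups at 1.3 ± 0.189 CPM in WT and 2.35 ± 1.43 CPM in Trem2-/- libraries (n = 4 each), and the call was kept under 7 of 16 alternatives and lost without any 1 of the 4 WT foamy libraries or without Trem2-/- foamy replicate 3. In non-foamy cells *Ccl5* had 0.74 (95% interval 0.04 to 1.44, adjusted p = 0.0802). The transcription factor gene *Irf1* (0.64 and 0.51) and the stress response gene *Gadd45b* (0.45 and 0.55) were higher in both media. *Ccl3* and *Ccl4* were also lower in WT foamy than in WT non-foamy cells (−0.42 and −0.37), as were *Ier3* (−0.29), *Tnip3* (−0.42) and *Pla2g4a* (−0.30). These 5 of 83 were the list genes that edgeR called in WT cells, beside 1.14% lower among all genes. DESeq2 called 8 lower and 3 higher, beside 881 of all 14237 genes in either direction. The call of *Ccl4* was lost without WT foamy replicate 1 or 2 and with both WT libraries that stand apart left out, that of *Ier3* without WT foamy replicate 2 and with only the libraries compared, and that of *Tnip3* without WT non-foamy replicate 1, while those of *Ccl3* and *Pla2g4a* were kept under all 16 alternatives. In Trem2-/- cells edgeR called 0 of the 83, with 8 at an unadjusted p under 0.05, beside 0.140% and 6.45% of all genes. DESeq2 called 1, beside 56 of all 14237 genes. The difference of the responses passed for 6 of the 83, beside 3.64% of all tested genes. In all 6 the log2 response was higher in Trem2-/- than in WT cells, as in 1.99% of all genes. A higher response does not mean a higher level. The difference was 0.58 for *Ccl3*, 0.51 for *Pla2g4a* and 0.46 for *Arg1*, which were called under all 22 alternatives. *Ccl4* (0.47) was called under 7 of them, *Ier3* (0.36) under 16 and the remaining gene (0.32) under 9.

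Beside *Ptgs2*, 9 prostanoid genes were tested, of which 3 were lower in non-foamy Trem2-/- cells, and 1 was higher and 2 lower in foamy ones. The higher call was kept under 5 of 16 alternatives. *Pla2g4a*, the phospholipase that releases arachidonic acid (−1.07 and −0.56), and *Ptges3* (−0.83 and −0.50) were lower in Trem2-/- cells in both media, while *Ptgs2* was higher. *Ptgs1*, the constitutive cyclooxygenase gene, had −0.15 (95% interval −0.33 to 0.03) and 0.19 (0.03 to 0.36, adjusted p = 0.0697). Beside *Nos2*, 7 arginine and nitric oxide genes were tested, with 3 higher and 1 lower in non-foamy Trem2-/- cells, and 1 higher and 2 lower in foamy ones. Of the lower foamy calls, 1 was kept under 8 of 16 alternatives. *Arg1*, the arginase that competes with nitric oxide synthase for arginine, was 7.1-fold and 9.78-fold higher in Trem2-/- cells (log2 fold changes of 2.83 and 3.29, both with an s.e. of 0.07).

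**Figure D4:**
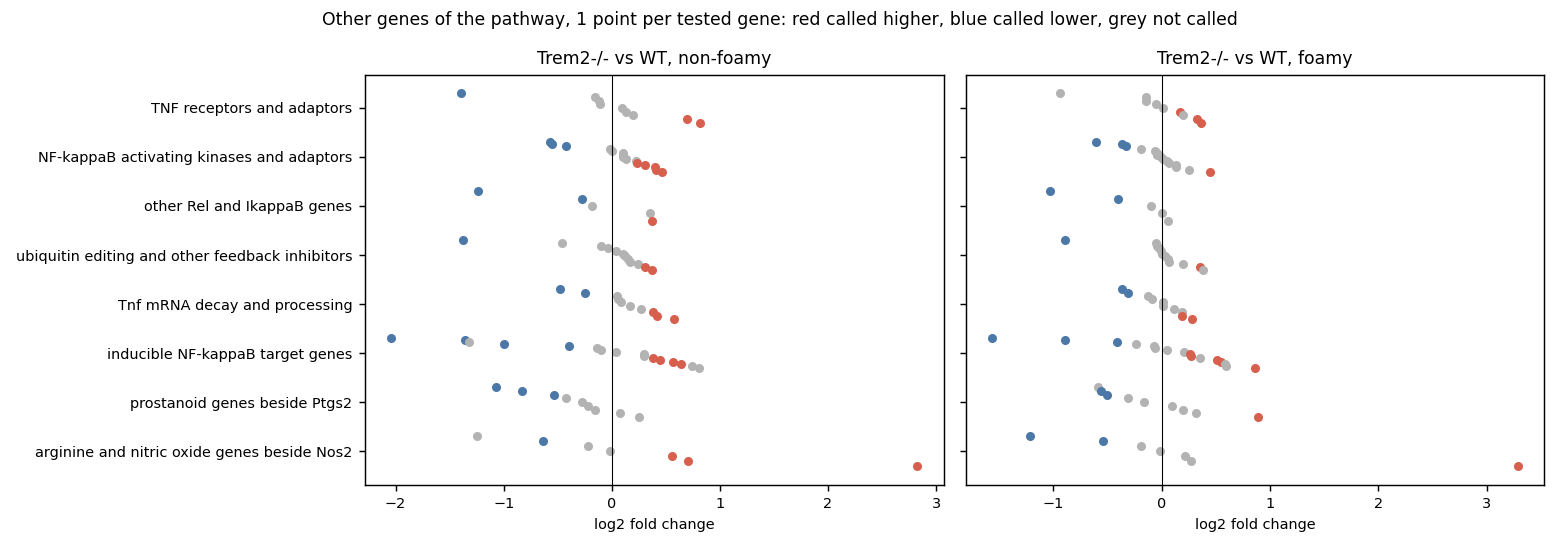
Log2 fold change of Trem2-/- against WT (x axes) for the 83 tested genes of 8 lists (y axis, 1 row per list), without cholesterol (left) and with it (right). Each point is 1 gene, red where called higher, blue where called lower and grey where not called, and the vertical line marks 0. Points lie on both sides of 0 in most lists, with *Arg1* farthest right at 2.83 and 3.29 and *Ccl2* farthest left at −2.04 and −1.57.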

How the data were processed

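The authors deposited 1 table of raw read counts per gene for each of 15 BV2 libraries, without normalization. According to the methods, reads were trimmed with Trimmomatic, aligned to GRCm38 with HISAT2 and assigned to genes by featureCounts, all run within CHURP. Strand setting and treatment of reads with several matches are not given in the sources used here. Genes were kept by filterByExpr (minimum count 10), scaled with TMM factors (0.918 to 1.11) and fitted with 1 mean per group using the quasi-likelihood test of edgeR 4.0.16 (R 4.3.3), with a biological coefficient of variation of 10.2%. A gene was called at a Benjamini-Hochberg adjusted p under 0.05 over all 14237 tested genes, and "passed" means the same. Standard errors and 95% intervals come from that fit, and adjusted p-values are edgeR's unless DESeq2 1.42.0 is named.

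The members and the 8 lists were chosen with earlier results of these data known. The members were named whatever their result. From each list up to 3 called genes per direction and comparison with a mean of at least 1 CPM could be named, besides *Rel*, *Zfp36*, *Tnfrsf1a*, *Tnfrsf1b*, *Ikbkb*, *Tnip1*, *Arg1* and *Ptgs1*, and the 5 genes most like *Tnf*. Exon overlaps and lengths came from the GENCODE annotation of GRCm38. The procedure was tested on simulated counts. Alternatives were DESeq2, RLE factors, total counts alone, no filter or a stricter one, only the groups compared, a factor for replicate number and leaving out each library. Leaving out both WT libraries that stand apart was added after seeing the data.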

Additional observations from a re-analysis of the deposited data

Results flagged for a closer look

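The response of *Tnfaip3* to cholesterol differed between genotypes by −0.5281 on the log2 scale (s.e. 0.14, 95% interval −0.82 to −0.23, edgeR adjusted p = 0.0416). It drew attention because the test of the difference itself passed. The response was 0.28 in WT cells, where all 4 foamy libraries were above all 4 non-foamy libraries, and −0.25 in Trem2-/- cells, where the media overlapped, and neither response passed on its own. The call was kept in 10 of 22 alternatives, with adjusted p from 0.0102 to 0.119 over them. In the 30 sets of 4 libraries tested for a single library far from the others, which marks about 1 in 20 sets by chance, none was found.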

How the results depend on the processing

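Of 830 member log2 fold changes recomputed under the alternatives, 762 kept their direction and their side of the threshold, 28 lost the call, 10 gained it and 30 changed sign, of which 0 were called in the reported fit. In the comparison of genotypes without cholesterol, the members called went from 7 to 4 with total counts alone and ranged from 4 (without Trem2-/- non-foamy replicate 1) to 7 when each library was left out. For the difference of responses they went from 1 to 2 with DESeq2, 2 with no filter, 0 with total counts alone and 0 with the replicate block, and ranged from 0 to 2 when each library was left out. The replicate block changed no other call of a member. The numbers were not taken to pair the samples, since the correlation of deviations of same-numbered libraries fell to −0.081. Signs changed for *Nfkb2* between media in WT cells (0.0014 with no filter, 0.0034 with at least 10 counts in every library and 0.0025 with only the libraries compared) and for *Nfkbiz* between non-foamy genotypes (−0.0609 with total counts alone). With both WT libraries that stand apart left out, they changed for *Nfkb1* between media in WT cells (−0.1153), for *Relb* between non-foamy genotypes (0.0566), and for the difference of responses of *Nfkb1* (0.0681) and *Nfkb2* (0.0463). Leaving out each library in turn gave ranges across 0 for the WT response of *Tnf* (−9e-04 to 0.0821), *Nfkb1* (−0.0596 to 0.0964), *Nfkb2* (−0.1006 to 0.0623), *Relb* (−0.0539 to 0.1755), *Nfkbia* (−0.0946 to 0.0091) and *Nfkbiz* (−0.1004 to 0.1672), for the Trem2-/- response of *Nfkb2* (−0.1486 to 0.0038), between non-foamy genotypes for *Relb* (−0.1249 to 0.0565) and *Nfkbiz* (−0.0742 to 0.1937), and for the difference of responses of *Nfkb1* (−0.1441 to 0.0123) and *Nfkb2* (−0.1657 to 0.0041). The cause was not tested. Over all genes, calls moved from 399 to 881 (DESeq2), 607 (no filter) and 144 (only the libraries compared) for the WT response, from 20 to 56 (DESeq2) and 61 (no filter) for the Trem2-/- response, and from 518 to 985 (DESeq2) and 294 (replicate block) for the difference. Leaving out each library in turn gave 146 (without WT foamy replicate 2) to 526, 10 (without Trem2-/- non-foamy replicate 1) to 18 and 201 (without Trem2-/- non-foamy replicate 1) to 661 calls, and leaving out both WT libraries that stand apart gave 715 for the WT response and 802 for the difference. The background shares of these comparisons move with them. Of 1328 list counts, 1197 stayed within 1.5 times the reported count. At the mean count of a group, counting error was up to 9.2% of a member's level (*Relb* in Trem2-/- foamy cells, where the spread between libraries was 26% of the level), and which of these limits a call was not tested.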
